A study of Bos grunniens and Bos grunniens x Bos taurus with 6 samples.

Results

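Sertoli cells of the adolescent yak testis were examined in 2 libraries of single-cell RNA from yak of 18 months. A barcode was taken as a member when it carried at least 2 UMIs (unique molecules) of INHA and at least 3 UMIs of INHA, FSHR, SOX9 and CITED1 together. It could carry at most 1 UMI of DCN, COL1A2, PECAM1, CDH5, PTPRC, CD3D and DMRT1 together. Members were thus chosen by UMI counts of these 11 genes. The rules found 1249 cells, 128 in replicate 3 and 1121 in replicate 4, among the 8456 kept cells of that age and the 31071 kept cells of the series. Cells were kept with 300 or more genes and no more than 20% mitochondrial UMIs. Since RNA chose the cells, the genes of the rule and every contrast of the members with other cells of their library are given below as description only.

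The series holds 6 libraries of testis, all 10x Genomics and all without a stated strain, genotype or treatment. Yak of 6 months, called prepubertal, gave replicates 1 and 2, and yak of 18 months, called adolescent, gave replicates 3 and 4. A single yak library of 4 years (replicate 5) and a single library of cattle-yak, a hybrid of cattle and yak with no age stated, came from after sexual maturity. Frozen tissue was thawed, digested with enzymes, strained and placed in culture medium in all groups. One label places the 18-month testes before sexual maturity, and another tag names the material "Germ cell" although the tissue is testis. The labels do not say that 2 libraries of an age come from different animals, so p-values measure the spread between libraries.

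Sertoli cells are the somatic cells inside the seminiferous tubule that surround and feed the germ cells. They receive follicle-stimulating hormone through the receptor FSHR, secrete inhibin, whose alpha subunit INHA encodes, and depend on SOX9 for their identity from the fetal testis onwards. Around puberty they stop dividing, seal the blood-testis barrier with tight junctions and turn to supporting meiosis, with lactate, transferrin, retinoid and protease-inhibitor supply among their known duties.

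The libraries of 18 months did not give alike samples of these cells. In replicate 3 the members were 3.02% of kept cells (exact binomial 95% interval 2.52 to 3.58), and in replicate 4 they were 26.6% (25.3 to 28.0). The same rules took 32.4% and 34.9% at 6 months, 1.68% in the cattle-yak library and 0.375% in the yak of 4 years. Thus replicate 4 lay close to the younger libraries and replicate 3 close to the mature ones. With 2 libraries against 2 an exact permutation test cannot go below p = 0.33, so no test of the share was made. The intervals cover counting error only.

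Members at 18 months were deeper and richer in mitochondrial RNA than those at 6 months. Their median was 5810 UMIs and 1434 genes in replicate 3 and 5340 UMIs and 1255 genes in replicate 4, against 2649 UMIs and 536 genes in replicate 1 and 2294 UMIs and 552 genes in replicate 2. Mitochondrial transcripts made up a median of 13.9% and 9.50% of a member's UMIs at 18 months and 0.279% and 0.334% at 6 months. Members summed to 1052811 UMIs in replicate 3, the fewest of the 4 libraries, and to 6036961 to 8996703 UMIs in the others. Transcripts of 24 ribosomal protein genes took 10.6% and 11.2% of member UMIs at 18 months and 17.5% in each library of 6 months. No member barcode was shared between replicates 3 and 4.

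The 5 marker genes were present in both adolescent libraries. INHA stood at 3855 and 5984 counts per 1e+06 UMIs (CPM) in members of replicates 3 and 4, and at 131 and 370 CPM in the other kept cells of the same libraries. CRYAB, a small heat-shock chaperone that the rule did not use, stood at 1928 and 5629 CPM against 124 and 467 CPM. SOX9 reached 620 and 425 CPM in members and 35.2 and 35.8 CPM in other cells, while at 6 months members had 188 and 66.8 CPM. FSHR was low everywhere, at 48.4 and 45.5 CPM in members at 18 months and 36.2 and 51.5 CPM at 6 months. CITED1, a transcriptional co-regulator, read 55.1 CPM in replicate 3 and 194 CPM in replicate 4. Of these 5 genes CRYAB alone was free of the rule, and it was higher in members than in other cells of both libraries. Other known Sertoli genes with a symbol were also found, among them the transcription factors GATA4 and WT1, the hedgehog ligand DHH and the protease inhibitor CST3, and AMH, CLU and CLDN11 were not analysed here.

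**Figure D1:**
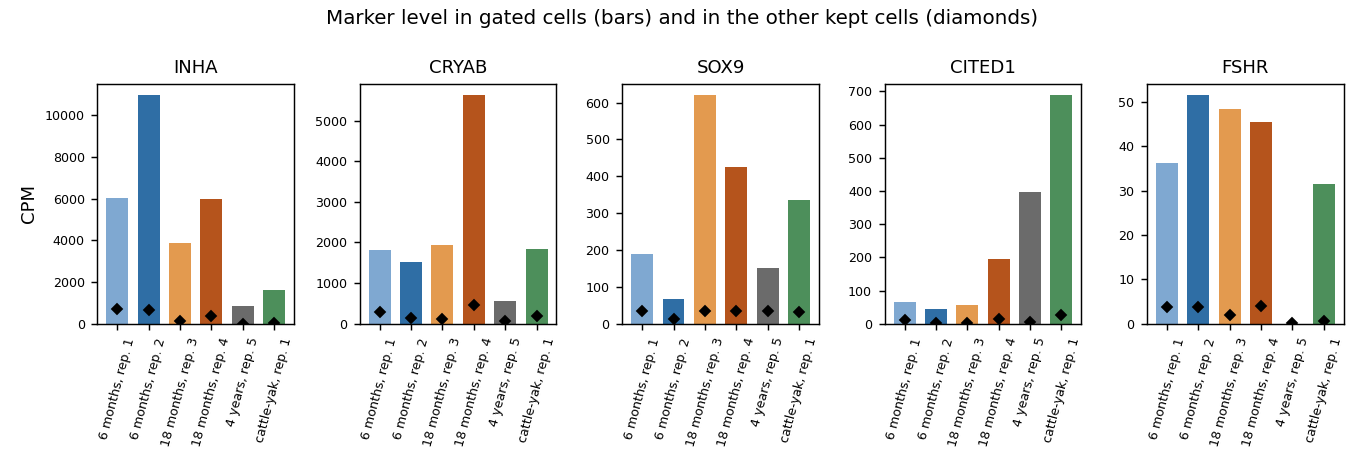
Level of the 5 marker genes in CPM, with bars for gated cells and diamonds for the other kept cells of each of the 6 libraries. Gated cells lie above the other cells for each marker except FSHR at 4 years, where 18 cells gave 0 UMIs and thus allow up to 56.8 CPM, and SOX9 is highest in both libraries of 18 months.

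Shares of cells with a UMI were compared after each cell was thinned to 1000 UMIs, which left out 16 and 23 shallower members at 18 months and 60 and 58 at 6 months. CRYAB appeared in 59.8% of replicate 3 members and 88.4% of replicate 4 members, against 5.81% and 20.3% of their gated stroma. Without thinning the shares were 79.7% and 97.8% of members and 13.9% and 32.0% of stroma, whose median depth was 1806 and 1430 UMIs. SOX9 was seen after thinning in 33.0% and 27.2% of members at 18 months and in 8.23% and 4.07% at 6 months, and FSHR in 4.46% and 5.37% at 18 months. Stroma gives no background for SOX9 and FSHR, since its rule limits their UMIs too.

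In replicates 3 and 4, 6 and 11 members just passed, with 2 INHA UMIs and a sum of 3. Just outside lay 59 and 76 kept cells with 2 INHA UMIs and no further marker UMI, 32 and 22 with 1 INHA UMI and a sum of at least 2, and 21 and 48 with 2 UMIs of the excluding genes. In replicate 3 these edge cells were thus nearly as many as the 128 members. CRYAB stood at 1993 and 5649 CPM in members that passed by more and at 110 and 2721 CPM in those that just passed. It stood at 123 and 434 CPM in the first kind of outside cells and 204 and 637 CPM in the second. Cells outside by the excluding genes had 1083 and 2838 CPM of CRYAB and 3585 and 7804 CPM of TIMP2, more than the other outside cells.

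Set against the other kept cells of their library, 251 of 6374 genes (3.94%) were more than 2-fold higher in members of both adolescent libraries, and 2016 (31.6%) were more than 2-fold lower. INHA led with 29.3-fold and 16.1-fold. AQP8, a channel for water, came next with 333 and 554 CPM in members, 24.9-fold and 15.2-fold over other cells. TNNI3, a troponin usually known from heart muscle, reached 717 and 1713 CPM. The metalloproteinase inhibitor TIMP2 stood at 7689 and 10350 CPM, the apolipoprotein APOA1 at 3968 and 6482 CPM, the cystatin CST3 at 3214 and 13870 CPM, and the serine protease inhibitor SERPINA5 at 491 and 697 CPM. GSTM3, a glutathione transferase, read 2115 and 5089 CPM, and the mitochondrial ADP/ATP carrier SLC25A4 read 206 and 229 CPM. The remaining genes of the 15 with the largest smaller fold were ARHGAP36, ARMH4, PCSK1N and FAM114A1, with CRYAB and SOX9. At 6 months, 14 of these 15 were also over 2-fold higher in members of both libraries.

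Clustering of the members alone gave 8 subclusters. Subclusters 1, 3 and 4 held 151 members, 29 of replicate 3 and 122 of replicate 4, and each had over 2 times the median level of markers of other cell classes. In subcluster 1 (67 cells) MGP and EBF1 led, with MGP at 1249 against 19.1 CPM in the remaining members. Subcluster 3 (27 cells) was led by TM4SF18 and CA4 and had 243 CPM of EMCN, an endothelial marker. Germ-cell genes led subcluster 4 (57 cells): SPOCD1, MAEL and REC114, with 232 CPM of the synaptonemal protein gene SYCP1 and 1080 CPM of INHA, the least of the 8. What these 3 hold was not tested, and results below are given with and without them.

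Among the other 5 subclusters the libraries split almost completely. Subcluster 2 held 96 cells of replicate 3 and 2 of replicate 4, led by the splicing factor SRSF7 and by KLF4. Subclusters 5, 6, 7 and 8 held 117, 368, 387 and 128 cells, of which 3 came from replicate 3. In subcluster 6 the stress-responsive genes ATF3 (910 against 373 CPM) and FOS (3494 against 1511 CPM) led together with SOX9 (671 against 336 CPM). Subcluster 7 was led by OXT, the oxytocin precursor gene (241 against 156 CPM), FDPS of isoprenoid synthesis (201 against 138 CPM) and CST3 (15400 against 11050 CPM). Subcluster 5 was led by SYNE2 and AKAP12, anchoring proteins of nucleus and kinase, and it had the highest level of SLC7A3, a carrier of basic amino acids, at 171 CPM. Subcluster 8 differed most in quality and in SOX9. Its median mitochondrial share was 1.55%, and it had 25.4 CPM of SOX9, 94.8 CPM of JUN and 7197 CPM of INHA. All 8 are descriptions, since the same RNA formed the clusters.

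Replicates 3 and 4 differed widely within the same rule. Of 4423 genes compared, 1180 (26.7%) were over 2-fold higher in replicate 3 and 266 (6.01%) over 2-fold lower. With 1 library on each side these are differences between libraries, with exact Poisson intervals that cover counting error only. Higher in replicate 3 were TMSB10 (106 UMIs against 0) and TMEM258 (185 against 12), and both were as unequal in the remaining cells of these libraries, at 273 against 0 CPM and 161 against 1.5 CPM. Next came WDHD1, 8.73-fold (7.23 to 11.6), STK31, RBBP8, SMARCC1, FKBP4 and FMR1, which are all more abundant in the other kept cells than in members of both libraries. Without the 3 mixed subclusters WDHD1 dropped from 174 to 25.9 CPM in replicate 3 and STK31 from 117 to 7.06 CPM, as against 5.98 and 4.79 CPM in replicate 4. Over all barcodes, 22 genes had at least 100 UMIs in replicate 3 and at most 20 in the other 5 libraries together. They held 0.0113% of member UMIs in replicate 3.

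Among the genes lower in replicate 3, OXT led. It had 19 UMIs (18.1 CPM) in replicate 3 and 1340 (209 CPM) in replicate 4, 11-fold (7.38 to 19.3). Its level at 6 months was 5.56 and 4.64 CPM, so replicate 4 stood apart from the other 3 libraries. CST3 was 4.32-fold lower in replicate 3, FDPS 4.14-fold, and CRYM, a thyroid hormone binding protein, 4.06-fold. ISG15, LTBP4, SDF2L1 and FAM229A completed the 8 largest. All 8 were also lower in the other kept cells of replicate 3, with 3-to-4 ratios there from 0.316 (CST3) and 0.319 (OXT) to 0.683 (CRYM). For CST3 and FDPS the levels at 6 months, 8704 and 7869 CPM and 52.1 and 117 CPM, lay between those of the adolescent libraries.

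At a cut of 2% mitochondrial UMIs the members fell into a smaller and a larger part, and the proportions were reversed between the ages. Under 2% mitochondrial UMIs were found in 10.2% of members in replicate 3 and 8.74% in replicate 4, but in 85.0% in each library of 6 months. In gated stroma the same low share was seen in 0.480% and 0% of cells at 18 months (0 of 316, which allows up to 0.949%) and in 3.42% and 0.897% at 6 months. Over all kept cells the low share was 6.08% and 9.07% at 18 months and 32.3% and 32.1% at 6 months, so replicate 4 members lay near their library. The value of 2% was set after the distribution was seen and marks a range, not a type: 12 and 38 members at 18 months, and 275 and 203 at 6 months, lay between 1% and 3%.

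**Figure D2:**
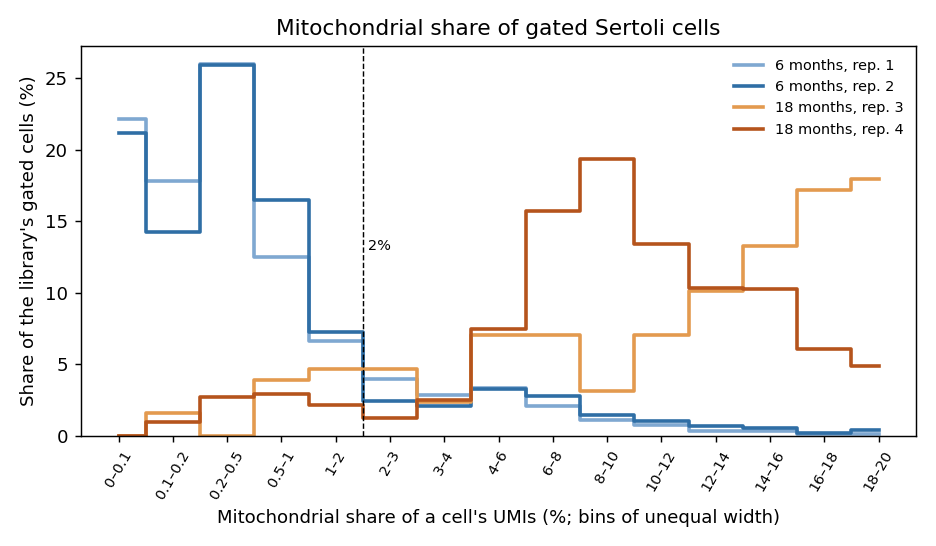
Share of the gated cells of each library (vertical axis, percent) in bins of unequal width of the mitochondrial share of their UMIs (horizontal axis), with a dashed line at 2%. Most cells of both libraries of 6 months lie left of the line, and most cells of both libraries of 18 months lie right of it, where replicate 3 peaks above 18% and replicate 4 between 8% and 10%.

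Low and higher mitochondrial cells were compared within each library, with mixed subclusters and mitochondrial genes left out. There were 7 and 92 cells of the low and higher kind in replicate 3, 79 and 920 in replicate 4, 2125 and 203 in replicate 1, and 1743 and 110 in replicate 2. Levels in this and the age comparisons are TMM-scaled CPM, that is, CPM divided by a factor which sets the bulk of genes equal between libraries, and fold changes are log2 ± SE. The edgeR quasi-likelihood test with the library as a block called 1539 of 5601 genes higher (27.5%) and 772 lower (13.8%) in the cells of at least 2%, at a Benjamini-Hochberg adjusted p below 0.05. This comparison was added after the data were seen.

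SOX9, which the rule used and which is therefore described without a test, followed the split in each library. Cells of low mitochondrial share had 29.0 and 41.2 scaled CPM of SOX9 at 18 months, from 1 and 10 UMIs, and 171 and 67.7 at 6 months. The other cells had 675 and 456 at 18 months and 727 and 305 at 6 months, so all 4 of these lay above all 4 of the low cells. INHA, also a gene of the rule, had 3131 and 5992 scaled CPM in the low cells and 4090 and 6148 in the other cells at 18 months. Of genes outside the rule, TIMP2 (-0.09), CST3 (-0.19) and CRYAB (0.46) did not pass. CRYAB passed without replicate 1 (0.66, edgeR adjusted p 0.0215) and with plain library totals (0.79, edgeR adjusted p 1.05e-22), and over its other alternatives the edgeR adjusted p was 0.307 to 0.567. The fit pools the spread over genes, so the size of very small p-values rests on that pooling.

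The immediate early and stress genes were higher in the cells of at least 2%: 16 of 17 tested passed and none was lower, with a median of 2.20 against 0.14 for all genes. For this and the lists below, the shares over all genes were 27.5% higher and 13.8% lower. JUN, a subunit of the AP-1 factor, differed by 2.65, ATF3 by 2.90, the phosphatase DUSP1 by 2.64 and FOS by 2.14. The orphan receptor NR4A1, counted in the list of FSH and cyclic AMP signalling instead, was higher by 3.22. All 8 of 8 genes in a list named for chromatin and RNA of long genes were higher, with a median of 2.1. Among them were ATRX (2.40), BPTF (2.62) and DDX17 (2.16). Gene length was not examined, so "long" is part of the list's name only. Of 11 basement membrane genes 7 were higher, including COL4A1 (1.25), COL4A4 (1.19) and LAMA1 (1.43), and none was lower. The endoplasmic reticulum chaperone HSPA5 was higher by 1.82 and the stress factor DDIT3 by 1.97. Of 21 endoplasmic reticulum genes, 3 passed as higher and 3 as lower, against 27.5% and 13.8% of all genes. With plain library totals 9 were higher and none lower, against 46.4% and 2.61% of all genes. VEGFA, the vascular growth factor, was higher by 2.42, and INHBA, the beta A subunit of activin and inhibin, by 1.35.

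Largest among genes of at least 100 scaled CPM were TOPORS (3.25), RBBP6 (3.20), JMJD1C (3.16), IFRD1, GOLGB1, ATF3, AKAP12 and CCN1. The 8 largest falls were smaller in size, SPC24 at -1.27, GLIPR2 at -1.07 and SNRPF at -0.94, then BUD31, NSA2, ATP5F1D, MRPL52 and SLIRP. Nuclear genes of electron transport gave 4 of 7 lower calls, against 13.8% of all genes, and a median of -0.54, with SDHB at -0.80 and NDUFB9 at -0.65. That direction rested on the scaling: with plain library totals none of the 7 was lower and 2 were higher. Totals also moved the median of all 5601 genes from 0.14 to 0.68, and gave 2597 higher (46.4%) and 146 lower calls (2.61%). All 8 genes of the list named for long genes and all 17 stress genes stayed or became higher there. Without replicate 3, whose low group is 7 cells, the calls were 1643 higher and 962 lower of 7831.

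**Figure D3:**
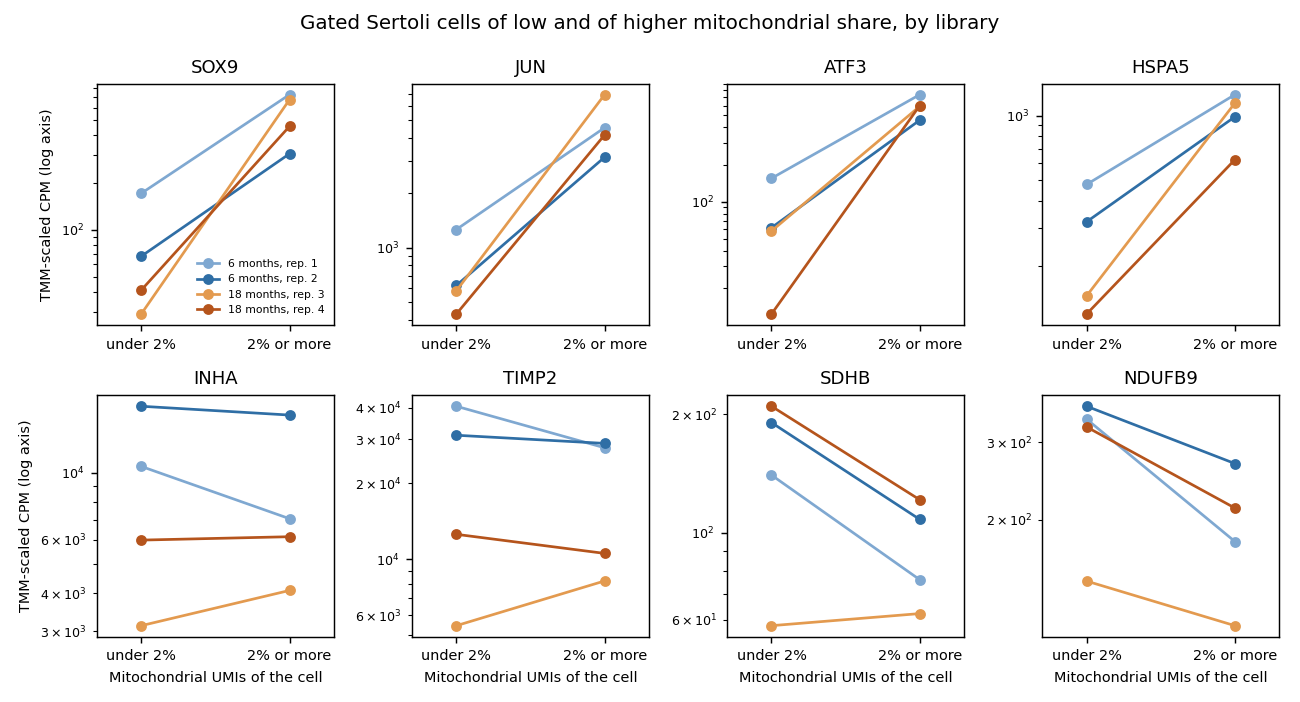
TMM-scaled CPM on log axes in cells of under 2% and of at least 2% mitochondrial UMIs, 1 line per library, for 8 genes in gated cells without mixed subclusters. SOX9, JUN, ATF3 and HSPA5 climb in all 4 libraries, INHA and TIMP2 show no common direction, and SDHB and NDUFB9 are lower in at least 3 libraries.

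Genes per cell were compared at the same cut of 2%, but over all members, mixed subclusters included. At a depth of 2000 UMIs, cells of low share at 18 months had a median of 692 and 601.5 genes, from 8 and 76 cells. The others had 701 and 661, from 79 and 983 cells. At 6 months the medians were 440 and 497 against 571 and 570.5. Of the cells of at least 2% at 6 months, 388 and 314 at any depth, only 203 and 110 lay outside mixed subclusters. The part of depth, of mixed subclusters and of the mitochondrial share in these differences of genes per cell was not tested.

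Between 18 and 6 months few genes passed the threshold when all members were summed per library. The edgeR quasi-likelihood test called 1 of 9418 genes as risen (0.0106%) and 8 as fallen (0.0849%), all at an adjusted p of 0.0492, and 1930 genes had an unadjusted p below 0.05. By position alone, 2789 genes (29.6%) had both adolescent values above both younger ones and 2473 (26.3%) below. By plain CPM, without the TMM factors, these shares were 66.2% above and 5.5% below. Fewer members with a given RNA and less of that RNA per member cannot be told apart in such sums.

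NR4A1, an immediate early nuclear receptor induced by cyclic AMP in many cells, was the gene that rose. It stood at 27.3 and 31.6 scaled CPM at 18 months and at 2.82 and 2.75 at 6 months, a change of 3.40 ± 0.47. The ages did not overlap, which was a condition for naming a gene. It also differed by 3.22 between mitochondrial classes, and among cells of at least 2%, without mixed subclusters, its change with age was 2.88 ± 0.52 and did not pass (edgeR adjusted p 0.0663).

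TINAGL1, a matricellular protein of basement membranes, went from 35.4 and 34.1 scaled CPM to 1.67 and 0.658 (3 and 5 UMIs), a change of -5.19 ± 0.61. DPEP1, a membrane dipeptidase, had 77.0 and 36.4 at 6 months and 3.89 and 2.11 at 18 months, -4.38 ± 0.61. HAPLN3, which links hyaluronan to proteoglycans, had 55.8 and 54.9 and then 5.01 and 2.37, -4.06 ± 0.53. APOD, a lipid-carrying lipocalin, had 88.1 and 49.7 and then 3.34 and 5.53, -3.87 ± 0.53. ERP27, a redox-inactive protein of the endoplasmic reticulum, had 114 and 86.7 and then 11.7 and 6.58, -3.52 ± 0.51. That both adolescent libraries lay below both younger ones in all 5 was a condition for naming them. PCOLCE2, an enhancer of procollagen processing, fell from 82 and 93 UMIs to 2 and 2 and lay below the level set for naming. The last pair were ENSBGRG00000012496 (-3.73) and ENSBGRG00000010827 (-5.55), which have no symbol.

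Of the 5 named falls, 4 also passed among cells of at least 2% mitochondrial UMIs without mixed subclusters. These cells still differed in median mitochondrial share, 5.19% and 5.36% at 6 months against 15.4% and 9.9% at 18 months. With mixed subclusters left out and only cells of at least 2% mitochondrial UMIs kept, 2 of 5252 genes rose (0.0381%) and 6 fell (0.114%). Changes were -4.78 for HAPLN3, -4.73 for APOD, -4.86 for TINAGL1 and -3.75 for DPEP1, with edgeR adjusted p of 0.00775, 0.00775, 0.0329 and 0.0329. ERP27 had -2.93 and did not pass (0.0841). Both risen genes were outside the calls on all members: SLC7A3, the carrier of basic amino acids, at 5.37 ± 0.78 (0.0228), and EMB, embigin, a partner of lactate carriers, at 5.93 ± 0.80 (0.0183). Over all members SLC7A3 had 23.9 and 71.2 scaled CPM at 18 months against 2.65 and 0.229, a difference of 4.95 (edgeR adjusted p 0.0721). EMB had 22.8 and 28.0 against 0.497 and 2.29, a difference of 4.26 (0.0589). SLC7A3 and EMB were chosen after their values were seen.

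The number of calls varied with the settings. Leaving out the mixed subclusters gave 77 rises (0.896%) and 58 falls (0.675%) of 8592 genes, and a limit of 10% mitochondrial UMIs gave none, with 1044 unadjusted p-values below 0.05 by edgeR. Leaving out replicate 4 gave 666 rises and 961 falls, leaving out replicate 3 gave 270 and 315, replicate 1 gave 79 and 118, and replicate 2 gave 43 and 55. Plain library totals in place of TMM shifted the median of all genes from 0.07 to 1.09 and gave 1346 rises (14.3%) and 33 falls (0.35%). Differences given here that lie nearer to 0 than that shift can therefore have the other sign with plain totals. NR4A1, TINAGL1, DPEP1, HAPLN3, APOD, ERP27, PCOLCE2, SLC7A3 and EMB kept their direction under all 14 alternatives.

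**Figure D4:**
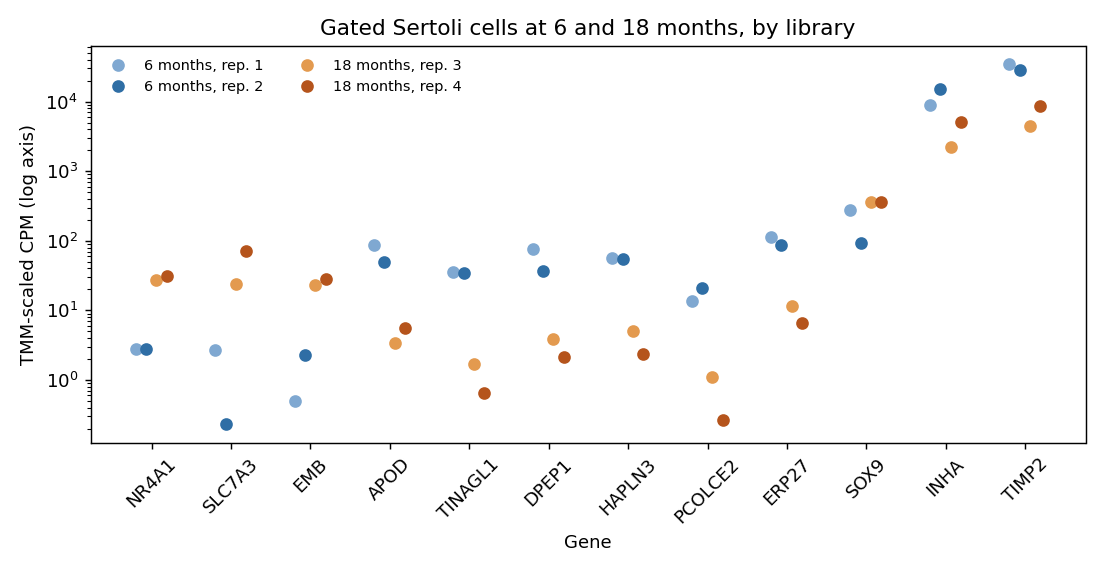
TMM-scaled CPM on a log axis in gated cells, 1 point per library, for the named genes of the age comparison and for SOX9, INHA and TIMP2. NR4A1, SLC7A3 and EMB are higher in both libraries of 18 months, APOD, TINAGL1, DPEP1, HAPLN3, PCOLCE2 and ERP27 are lower in both, and SOX9 of replicate 1 lies near the adolescent values.

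The genes of the rule are described with age, without a test. SOX9 had 363 and 359 scaled CPM at 18 months against 281 and 92.2 at 6 months, so both adolescent values were higher. Within the mitochondrial split described above this did not hold. Among cells of at least 2% the SOX9 values of the ages overlapped. Among cells of low share both adolescent values, from 1 and 10 UMIs, were lower. The part of the mitochondrial share in the SOX9 difference was not tested. INHA had 2258 and 5053 against 9017 and 15170, and FSHR had 28.4 and 38.4 against 54.0 and 71.2, both lower without overlap, though by plain CPM the ages overlapped for FSHR. CITED1 overlapped between ages. CRYAB, outside the rule, overlapped too and did not pass (0.30 ± 0.68, edgeR adjusted p 0.820). The maturation lists gave no call, and TF, transferrin, overlapped between ages (-1.18). Of 12 junction genes none passed, with CLDN1 at -2.85, TJP1 at 0.86 and NECTIN2 at -0.55. GJA1, which joins Sertoli cells in gap junctions, had at most 2.76 scaled CPM in any library.

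Hormone signalling and ligands were likewise mostly under the threshold. In the list of FSH and cyclic AMP signalling 1 of 14 genes rose, NR4A1, and none fell, with GNAS at -0.38 and PRKAR2B at 0.21. Inhibin and activin genes, INHA of the rule among them, gave 0 of 10, INHBA standing at 174 and 162 scaled CPM against 207 and 144. Among ligands for the germ-cell niche 0 of 10 passed: WNT6 had 52.3 and 48.8 against 244 and 208 (-2.16 ± 0.46, edgeR adjusted p 0.0948), KITLG, the ligand of KIT on germ cells, differed by 0.44, and BMP4 by -0.76. The 12 retinoid genes had a median of -1.05 against 0.07 for all genes, and 6 of them lay below without overlap, against 26.3% of all genes. By plain CPM 2 of the 12 lay below and 4 above, against 5.5% and 66.2% of all genes. RBP4, the plasma retinol carrier, had 75.7 and 45.3 against 364 and 147, its receptor STRA6 had 22.2 and 11.8 against 107 and 47.6, and CYP26A1, which degrades retinoic acid, had 1.67 and 0.395 against 7.29 and 21.1. CYP26A1 passed without the mixed subclusters (edgeR adjusted p 0.0307).

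Of 13 secreted proteases and inhibitors none passed over all members, with 6 below without overlap and 1 above, against 26.3% and 29.6% of all genes. By plain CPM 4 of the 13 lay below and 2 above, against 5.5% and 66.2% of all genes. TIMP2 had 4503 and 8741 scaled CPM against 34780 and 28470 (-2.26 ± 0.61, edgeR adjusted p 0.126, and -1.28 and 0.0441 with plain totals), and APOA1 and APOE differed by -2.21 and -2.32. Without mixed subclusters TIMP2 (edgeR adjusted p 0.0374) and APOA1 (0.0456) passed as falls and ADAMTS1, a secreted protease, passed as a rise (0.0171), from 12.4 and 13.3 to 70.7 and 57.4 over all members. Of 22 endoplasmic reticulum genes 1 fell, ERP27, and 15 lay below without overlap (26.3% of all genes did), among them PDIA3, P4HB, KDELR1 and KDELR3. By plain CPM 5 of the 22 lay below and 7 above, against 5.5% and 66.2% of all genes. Of 20 genes tested in the immediate early and stress list, which does not hold NR4A1, none passed by edgeR over all members. Of these, 13 lay above (29.6% of all genes did), and 19 by plain CPM (66.2% of all genes). With plain totals 14 of the 20 rose by edgeR, against 14.3% of all genes. Their median was 0.75, and 0.31 among cells of at least 2% mitochondrial UMIs. All 8 genes of the list named for long genes lay above under both scalings, with a median of 1.12, and of 0.41 among cells of at least 2% without mixed subclusters. The part of either choice was not tested.

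Division and metabolism gave no call over all members. On simulated data the age fit called 1.58% of 2-fold and 37.2% of 4-fold changes, so a missing call does not show a lack of change. None of 19 cell-cycle genes passed, TOP2A having 7.23 and 1.19 scaled CPM against 5.46 and 11.4. CDKN1A, an inhibitor of the cycle, had 24.5 and 5.79 against 0.166 and 1.14 (4.51 ± 0.95, edgeR adjusted p 0.0948) and passed without the mixed subclusters (0.0405). No gene of glucose to lactate conversion (9 tested), of cholesterol synthesis (14), of nuclear electron transport (7) or of antioxidant defence (13) passed, with medians of 0.06, -0.43, -0.72 and -0.27, all above 0 with plain totals (1.04, 0.54, 0.26 and 0.68). In these lists LDHA was not analysed here.

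Markers of other cell classes were low but not equal among members. Of 28 such markers the sum was 540 CPM in replicate 3 and 166 CPM in replicate 4, against 123 and 247 CPM at 6 months, and 8, 4, 5 and 2 of them were at 0. Mural markers made up 370 CPM in replicate 3 and 90.2 in replicate 4, and 40.7 and 50.7 CPM at 6 months. Spermatocyte markers summed to 76.9 and 11.5 CPM against 2.11 and 1.49. Lymphocyte markers were highest in replicate 2, at 125 CPM, against 18.2 to 40.8 in the other 3. Their part in the results on all members was not tested beyond the sums without mixed subclusters.

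To ask which changes with age were not shared by another somatic class, the difference in members was set against that in gated stroma of the same libraries. The edgeR test of this interaction called 90 of 9644 genes as more positive in members (0.933%) and 136 as more negative (1.41%). DPEP1 showed the largest: in members it went from 99.5 and 47.5 scaled CPM to 4.84 and 2.74, and in stroma from 5.47 and 1.31 to 25.5 and 35.8, an interaction of -7.60 ± 0.52 (adjusted p 3.67e-07). APOD did the same, from 114 and 64.9 to 4.14 and 7.18 in members and from 66.0 and 61.6 to 259 and 311 in stroma (-6.02 ± 0.35, edgeR adjusted p 6.91e-08). By these values both genes were lower at 18 months in members and higher in stroma. TINAGL1 (-4.56) and HAPLN3 (-3.36) stayed between 2.06 and 5.18 in stroma while falling in members. Over 9 alternatives they ran from -6.21 to -3.80 and from -4.73 to -2.73, and neither passed in every one.

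NAAA, a lysosomal amidase, had 6.22 and 3.42 in members at 18 months against 49.0 and 125 (-4.26). RCAN2 (-3.75) and SLIT3 (-3.60) rested mainly on stroma, where SLIT3 had 16 and 17.1 against 1.73 and 0.874. NKG7, a gene of cytotoxic lymphocytes, was called at -3.08 but had 76.0 in members of replicate 2 alone, and without mixed subclusters it had -0.79 and did not pass (edgeR adjusted p 0.576). Positive interactions were led by IGFBP5, which binds insulin-like growth factors (4.21). Its members had 2.07 in replicate 3 and 40.9 in replicate 4 against 5.35 and 5.08, and without replicate 4 it did not pass (1.51, edgeR adjusted p 0.504). SH3BP5 went from 1.71 and 1.5 to 26.2 and 11.5 in members (3.70), and TFPI2, an inhibitor of serine proteases, from 12.4 and 11.1 to 18 and 88.6 (3.06). TFPI2 also fell in stroma, from 38.3 and 37.6 to 10.7 and 23.4. TOPORS (2.44), SCAF4 (2.41), TPP2 (2.32), NOVA1 (2.31) and TRA2A (2.22) completed the 8 largest. All of these but TPP2 were also lower in both stroma samples of 18 months than in both of 6 months. TOPORS also had the largest difference between mitochondrial classes among genes of at least 100 scaled CPM.

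By list, 6 of 16 basement membrane genes were more negative in members than in stroma and none more positive: COL4A3, COL4A4, COL4A5, LAMA2, LAMC3 and NID1. The same 6 of 16 count held with plain library totals. Over 9 alternatives all 6 kept their direction, but none passed in every one, and NID1 ranged from -7.13 to -0.48. Members at 18 months held little NID1 (0 and 0.468 CPM, where 0 UMIs allow up to 2.85), LAMA2 (5.70 and 1.87) or LAMC3 (7.60 and 5.30). Immediate early genes gave 3 of 20 more positive, FOS (1.48), JUNB (1.06) and EGR1 (1.06), or 14 of 20 with plain totals, which called 12.5% of all genes more positive and 1.11% more negative. Set against gated endothelium, JUNB had -0.20 and EGR1 had -0.36, and neither passed by edgeR (adjusted p 0.819 and 0.731). FOS ran from 0.18 to 2.11 over 9 alternatives and did not pass in every one. SOX4 (1.86), ADAMTS1 (1.79) and the lipid-droplet protein PLIN2 (2.01) were more positive, and RBP4 (-2.10), WNT6 (-2.0) and GSTM3 (-2.05) more negative. Over 9 alternatives WNT6 ran from -2.53 to -0.06, PLIN2 from 1.57 to 2.63 and ADAMTS1 from 1.39 to 3.13. None of these passed in every alternative.

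**Figure D5:**
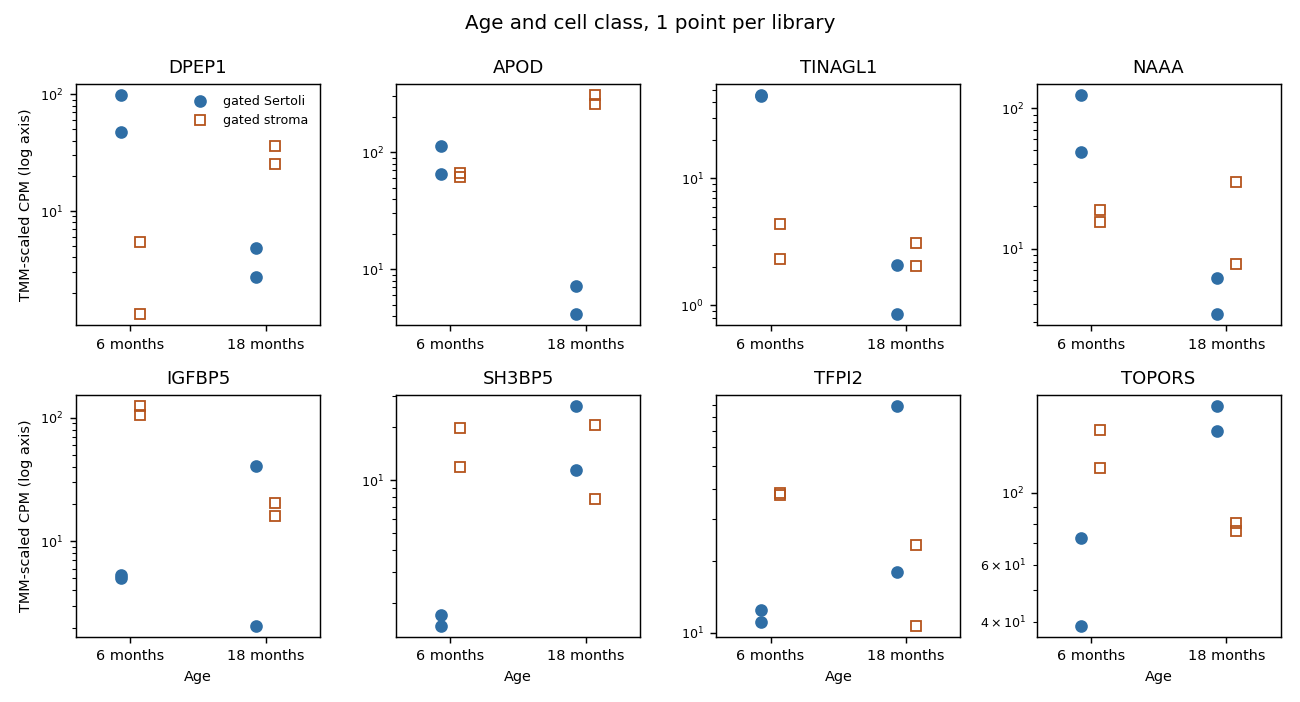
TMM-scaled CPM on log axes at 6 and 18 months in gated Sertoli cells (filled circles) and gated stroma (open squares), 1 point per library, for 8 genes of the interaction test. DPEP1 and APOD run in opposite directions in the 2 classes, TINAGL1 is low in stroma at both ages, and IGFBP5 is raised in 1 of the 2 adolescent Sertoli samples.

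Mature testes held few cells that met the rule, 64 in the cattle-yak library and 18 in the 4-year one, with 1 library each and no test. INHA had 1611 and 852 CPM there, below the 3855 and 5984 CPM at 18 months. CITED1, which the rule counts and through which a cell poor in INHA can pass, had 689 and 398 CPM, above every younger library, and at 1000 UMIs it was seen in 46.9% of 49 cells of the cattle-yak (32.5 to 61.7) and 60% of 10 at 4 years (26.2 to 87.8), against 4.46% and 16% at 18 months. Median depth was 1638 and 1048 UMIs. Markers of other classes summed to 714 and 700.4 CPM in these cells, higher than in any younger library, and spermatocyte markers to 341 CPM at 4 years.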

How the data were processed

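Single-cell RNA of testis was measured with 10x Genomics libraries. The deposited values are whole UMI counts, not normalized, which the authors made with Cell Ranger. Its version is 5.0.0 according to the headers of the files (per the file headers) but 2.1.1 in the submitters' processing notes. No genome build is named there. The files name 26961 features, 15709 with a symbol, which is used as given. The members and gene lists were chosen with earlier results of these data known. Of 486 listed genes 364 had a symbol.

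Library totals ran from 9575446 to 24762829 UMIs, 24762829 and 17482769 at 18 months. Cells were filtered and gated as the report states. Stroma required at least 3 UMIs of DCN and COL1A2 and at most 1 of INHA, FSHR, SOX9 and CITED1. Doublets were left in, and Scrublet removal by rank, at 0.8% per 1000 barcodes, was an alternative that took 8 and 58 members at 18 months. Replicates were separate libraries: the chi-square over genes, per degree of freedom, was 28.5 between replicates 1 and 2 and 31.9 between 3 and 4.

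Counts were summed per library and class and tested with edgeR 4.0.16 (R 4.3.3; filterByExpr, TMM, glmQLFit), with Benjamini-Hochberg adjustment over all genes tested and a threshold of 0.05. DESeq2 1.42.0 was an alternative. The age fit has 2 libraries against 2, and the interaction and mitochondrial fits carry the library as a block. Members were clustered in scanpy 1.11.5 (2000 variable genes, 20 components, 15 neighbours, resolution 0.6). Fold changes between members and other cells had 1 CPM added to each side. The fits were tested on simulated data with known changes, where the age fit called 1.58% of 2-fold, 37.2% of 4-fold and 81% of 8-fold changes.

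Named for age were genes with a symbol past the threshold, of at least 20 CPM at one age and with ages that did not overlap, up to 12 each way. For the interaction these were the 8 largest each way, for members against other cells the 15 largest of at least 200 CPM, for replicate 3 against 4 the 8 largest each way of at least 100 CPM, and for subclusters the 6 largest of at least 200 CPM. List members could be named whatever their value. The mitochondrial split, its 8 named genes each way of at least 100 scaled CPM, and the removal of mixed subclusters were chosen after seeing the data.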

Additional observations from a re-analysis of the deposited data

Results flagged for a closer look

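The difference between 18 and 6 months was not the same in gated Sertoli cells and gated stroma for the 16 genes named from the interaction test by edgeR, each with an adjusted p below the threshold. More positive in Sertoli cells were IGFBP5 (4.21 on the log2 scale), SH3BP5 (3.70), TFPI2 (3.06), TOPORS (2.44), SCAF4 (2.41), TPP2 (2.32), NOVA1 (2.31) and TRA2A (2.22). More negative were DPEP1 (-7.60), APOD (-6.02), TINAGL1 (-4.56), NAAA (-4.26), RCAN2 (-3.75), SLIT3 (-3.60), HAPLN3 (-3.36) and NKG7 (-3.08). IGFBP5 rested on replicate 4 and on a fall in stroma, and NKG7 on mixed subclusters of 6 months. NOVA1 (0.28), TRA2A (0.97), DPEP1 (-2.53), RCAN2 (-5.43) and SLIT3 (-2.31) did not pass when gated endothelium took the place of stroma.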

How the results depend on the processing

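No paired analysis was possible because the ages share no replicate number. The count of genes past the threshold between ages was 9 and became 1379 with library totals, 557 without the low-count filter, 181 with at least 3 INHA UMIs and a sum of at least 5, 0 with at most 10% mitochondrial UMIs (1044 unadjusted edgeR p-values below 0.05), 266 with cells of 2000 to 10000 UMIs, 452 with DESeq2 and 135 without mixed subclusters, and 98 to 1627 without 1 replicate. The interaction gave 226 calls, and 1314 with totals, 404 without the filter, 565 against endothelium and 152 to 632 without 1 replicate. The mitochondrial split gave 2311, 1247 without the filter and 855 to 2605 without 1 replicate. With totals the interaction split into 1207 more positive and 107 more negative calls and its median over all genes moved from -0.03 to 0.60. The share of members was 3.89% in replicate 3 with up to 40% mitochondrial UMIs and 35.8% in replicate 4 with at least 500 genes. JUNB (-0.20) and EGR1 (-0.36) reversed in the interaction with endothelium. Of 279 interaction values over 31 genes named from it or its lists, 238 stayed on their side of the threshold with their direction and 39 no longer passed. Over 9 genes named for age no direction changed, 93 of 126 values stayed, 10 no longer passed and 23 newly passed, and all 41 values of 7 genes of the split stayed (INHBA, SOX4, JUN, FOS, ATF3, HSPA5 and NR4A1). Where calls changed, the cause was not tested. An age has 2 libraries, and the 128 members limit the depth of replicate 3. Where a fit leaves 1 library at an age, that library is assumed to vary like the others.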
